A study of Mus musculus with 16 samples.

Results

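This report describes 5 protein-coding genes, Pcdh17, St3gal6, Mb21d2, Spon2 and Tiam1. In control, in colitis or in both, each was lower in the colon of mice lacking Smarcad1 in the intestinal epithelium. They were picked by name from the deposited tables of this comparison, with their measured differences known, and are 5 of the 5171 distinct genes that these tables hold. In all, 37 genes (0.716%) were lower in the knockout (KO) in a table that compares it with wild type (WT), 19 in control, 20 in colitis and 2 in both, so that the 5 genes are a selection from these 37. The differences between KO and WT that chose them are given as a description and support nothing further.

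Whole colon tissue of male C57BL/6 mice gave 16 RNA libraries: 3 of untreated WT mice (WT control), 3 of untreated KO mice (KO control), 5 of WT mice with colitis and 5 of KO mice with colitis. KO mice carried Smarcad1 alleles flanked by loxP sites and Cre recombinase under the villin promoter, which is active in the intestinal epithelium, so the other cells of the colon wall kept the gene. Every mouse, controls included, received an enriched microbiota from 2 weeks before the treatment, passed on by soiled bedding and shared ventilation from donor C57BL/6 females of another facility. Colitis mice were given 1% dextran sulphate sodium (DSS), a sulphated polysaccharide that injures the lining of the large bowel, to drink for 15 days. The floxed allele was used as 1 mouse line derived from 1 clone of targeted embryonic stem cells. The labels give no age. The design text speaks of small intestinal tissue, whereas the sample labels say colon. Of 6 markers of colonocytes, 6 were in the tables, with a summed level between 21132 and 23426 RPM (reads of a gene per 1e6 reads of its library) in the 4 groups. Lypd8, at 13.75 to 14.02 on the log2 scale, made up most of each sum. Of 8 small intestine markers 1 was listed, Fabp6, at 2.34 to 8.62 RPM. The tables hold only genes that passed in a comparison, so a marker that is not listed may still be expressed. These counts therefore do not settle the tissue.

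The values are the authors' means over the libraries of each group, in log2 RPM and not corrected for gene length. The geometric mean library size recovered from the lowest means was 8.005 to 10.1 M reads. No value of a single library was analysed here. The read counts by library in the supplement of the study were left unused, so the spread between mice is not given, no test was run, and each error below is a counting error (SE) from the reads behind the means. Being in a table means that the gene passed the authors' adjusted p-value of 0.05 in that comparison. In whole tissue, fewer cells of a type and less RNA per cell cannot be told apart. Smarcad1, the targeted gene, checked the labels: its mean over all its exons was 5.77 in WT and 4.59 in KO in control, and 5.68 and 4.55 in colitis, a KO level of 44.1% of WT in control and 45.6% in colitis.

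Smarcad1 is an ATP-dependent chromatin remodelling factor that is linked to heterochromatin, gene silencing and DNA repair. The 5 genes belong to different families. Pcdh17 is a protocadherin, a cadherin-like adhesion protein of the cell surface that has been studied most in neurons. St3gal6 is a sialyltransferase of the Golgi that caps galactose with sialic acid and takes part in making ligands for selectins, the adhesion receptors by which leukocytes roll on vessel walls. Mb21d2 shares the Mab-21 fold with the DNA sensor cGAS, and its own function is little known. Spon2 (mindin) is a secreted matrix protein that binds bacterial lipopolysaccharide and integrins of leukocytes. Tiam1 is an exchange factor that loads the small GTPase Rac with GTP and takes part in cell polarity and migration.

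On the build GRCm38, which the tables use, Pcdh17 (ENSMUSG00000035566) spans chr14:84443563-84537060 on the plus strand and Spon2 (ENSMUSG00000037379) spans chr5:33198184-33218455 on the minus strand. The other 3 lie on the minus strand of chromosome 16, Mb21d2 (ENSMUSG00000051065) at chr16:28826176-28929698, St3gal6 (ENSMUSG00000022747) at chr16:58468125-58524243 and Tiam1 (ENSMUSG00000002489) at chr16:89787111-89980080. Chromosome 16 holds 3.29% of the genes in the tables, 4 of the 37 genes lower in KO and 3 of the 5 described here. These 3 are not neighbours, since 29.5 Mb separate Mb21d2 from St3gal6 and 31.3 Mb separate St3gal6 from Tiam1.

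The sequence before the start of transcription is shown for the 4 genes with an entry in RefSeq (build GRCm38.p6), to show how unlike these starts are in base composition. Each line gives 250 bases that end just before the start, 5′ to 3′ on the strand of the gene, and for St3gal6 and Tiam1 the window nearest to the start in the tables. The windows are chr14:84443313-84443562 for Pcdh17, chr16:58524254-58524503 for St3gal6, chr16:28929699-28929948 for Mb21d2 and chr16:89974700-89974949 for Tiam1. Capitals mark matches, on either strand, to GGGCGG (the GC box of Sp factors) or TGANTCA (the site of AP-1 factors).
Pcdh17: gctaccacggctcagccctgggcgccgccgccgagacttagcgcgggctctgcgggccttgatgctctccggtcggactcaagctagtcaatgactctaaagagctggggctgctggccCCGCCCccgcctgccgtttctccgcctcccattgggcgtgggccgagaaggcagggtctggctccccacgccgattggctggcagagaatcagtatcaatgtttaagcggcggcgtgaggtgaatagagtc
St3gal6: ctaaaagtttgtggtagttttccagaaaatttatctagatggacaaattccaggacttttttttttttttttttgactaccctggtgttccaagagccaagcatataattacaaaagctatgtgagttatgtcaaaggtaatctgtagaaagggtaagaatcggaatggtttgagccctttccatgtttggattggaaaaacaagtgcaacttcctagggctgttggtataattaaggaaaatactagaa
Mb21d2: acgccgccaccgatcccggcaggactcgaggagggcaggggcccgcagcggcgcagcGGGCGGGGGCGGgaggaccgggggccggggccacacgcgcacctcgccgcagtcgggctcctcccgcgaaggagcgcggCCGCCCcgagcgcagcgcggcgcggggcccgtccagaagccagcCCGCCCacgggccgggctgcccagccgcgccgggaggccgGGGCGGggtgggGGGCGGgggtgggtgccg
Tiam1: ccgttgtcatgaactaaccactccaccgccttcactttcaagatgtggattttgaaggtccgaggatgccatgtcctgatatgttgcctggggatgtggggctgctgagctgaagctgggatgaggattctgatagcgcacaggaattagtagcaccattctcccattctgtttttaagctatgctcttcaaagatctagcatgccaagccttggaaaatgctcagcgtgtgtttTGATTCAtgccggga

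The window of Mb21d2 had a GC content of 84.4% and 40 CpG dinucleotides, above the median of 52.4% and 6 CpG over all 32851 promoters, and that of Pcdh17 had 64.8% and 21 CpG. The window at the upstream start of St3gal6 had 34.8% and 1 CpG, whereas the window of its other start, 817 bases from the start in the tables, had 64.4% and 16 CpG. The window of Tiam1 had 48.4% and 6 CpG and lies 5381 bases from the start in the tables, and its other window, further into the gene, had 53.2% and 9 CpG. In the GENCODE M21 annotation Tiam1 reaches upstream to chr16:90143769, beyond its span in the tables, and neither window covers that start. Copies of GGGCGG, with overlapping copies counted separately, numbered 6 in Mb21d2, 1 in Pcdh17, 0 in the upstream and 4 in the other window of St3gal6 and 0 in both windows of Tiam1, and 32.7% of all promoters held at least 1. TGANTCA was found once, in the first window of Tiam1, and is held by 6.75% of promoters. The letters of TATAAA (12.4% of promoters), TTTATG (10.8%) and CACGTG (6.02%) were in none of these 6 windows. A match of letters is a description and not a bound site.

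Pcdh17 showed the lowest difference between KO and WT of all 5171 genes in control. Its mean was 6.34 in WT control, 4.15 in KO control, 4.07 in WT colitis and 3.14 in KO colitis, or 81.2, 17.7, 16.8 and 8.81 RPM. WT control stood alone at the top, KO control and WT colitis lay together, and KO colitis was lowest. In control the difference was −2.20 ± 0.070 (log2, counting SE, n = 3 against 3), a KO level of 21.8% of WT. In colitis it was −0.93 ± 0.089 (n = 5 against 5), or 52.5% of WT, and Pcdh17 was not in the table of that comparison. Pcdh17 fell by 2.28 with colitis in WT and fell by 1.01 in KO, and was in both tables of colitis against control. The mean of WT colitis was thus 0.08 below that of KO control, a difference within its counting interval of −0.24 to 0.09. The change in KO was less negative than that in WT by 1.27, and this difference between differences was not tested.

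St3gal6 had the same order of genotypes at a much higher level. The means were 8.48 in WT control, 7.35 in KO control, 7.66 in WT colitis and 7.23 in KO colitis, which is 357, 163, 202 and 150 RPM. WT control was again the highest and the other 3 groups lay within a narrower range. KO minus WT was −1.13 ± 0.025 in control, a KO level of 45.7%, and −0.43 ± 0.023 in colitis, a KO level of 74.5% that was not in the table. With colitis in WT, St3gal6 fell by 0.82. In KO its change was −0.12 ± 0.027 and was not in the table. The gap between genotypes shrank from 194 RPM in control to 51.6 RPM in colitis. St3gal6 shares 1603 bases at its 3′ end with Dcbld2 on the opposite strand. Whether counting used strand is not given in the sources used here, so reads in that stretch cannot be told apart. Dcbld2, a transmembrane receptor, had a KO minus WT difference of −0.10 in control and −0.20 in colitis. Pcdh17 overlaps an antisense gene, 9630013A20Rik, over 17786 bases, and the same limit holds there.

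Mb21d2 was lower in KO by nearly the same amount in both conditions and was, with Smarcad1, 1 of the 2 genes listed as lower in both tables of KO against WT. Its means were 4.44 in WT control, 3.17 in KO control, 5.08 in WT colitis and 3.75 in KO colitis, or 21.8, 9.003, 33.9 and 13.5 RPM. Both KO means lay under both WT means. KO minus WT was −1.27 ± 0.105 in control and −1.33 ± 0.068 in colitis, KO levels of 41.3% and 39.7% of WT. Mb21d2 rose with colitis by 0.64 ± 0.068 in WT and by 0.58 ± 0.105 in KO, and was in both tables. These changes differed by −0.06, with a counting interval of −0.30 to 0.19. Mb21d2 was the only 1 of the 5 genes in all 4 tables. Of the listed genes 4 (0.0774%) were lower in KO by at least 1 in both conditions, and these include Mb21d2 and the deleted gene Smarcad1. As these contrasts chose Mb21d2, nothing is read from this share.

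Spon2 was not lower in KO in control. The means were 6.66 in WT control, 6.84 in KO control, 7.22 in WT colitis and 6.16 in KO colitis, equal to 101, 115, 149 and 71.4 RPM. The KO mean was above that of WT in control and the lowest of the 4 in colitis. KO minus WT was 0.18 ± 0.036 in control and −1.07 ± 0.031 in colitis, where the KO level was 47.8% of WT and Spon2 was in the table. With colitis Spon2 rose by 0.56 ± 0.032 in WT and was in that table. Its change in KO was −0.68 ± 0.035 and was not in the table, so the means moved in opposite directions and the difference between the changes was −1.24. That difference was not tested.

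The KO means of fibroblast markers, like that of Spon2, were below those of WT in colitis. Of 6 such markers 5 were in the tables, with a summed level in control of 2555 RPM for WT and 2479 for KO, and in colitis of 4935 for WT and 3670 for KO, and none was at or under 3 reads per library. Set against WT, their median in KO was −0.05 in control and −0.43 in colitis. Of the 5, 0 were in a table of KO against WT, where 0.367% (control) and 0.387% (colitis) of listed genes were lower. This absence therefore does not stand out. All 5 were in both tables of colitis against control as higher, where 36.6% (WT) and 44.8% (KO) of all listed genes were. By median they stood 1.01 higher with colitis for WT mice and 0.56 higher for KO mice. Spon2 had 0.56 for WT and −0.68 for KO. The part of fibroblast abundance in the difference of Spon2 was not tested.

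Tiam1 was lower in KO in both conditions and was in the table of KO against WT in colitis alone. It had means of 4.44 in WT control, 3.88 in KO control, 5.00 in WT colitis and 4.00 in KO colitis, or 21.7, 14.8, 32.1 and 16.0 RPM. WT colitis was the highest, and the KO means lay close together below both WT means. KO minus WT was −0.55 ± 0.089 in control and −1.01 ± 0.065 in colitis, KO levels of 68.1% and 49.8%. With colitis the mean of Tiam1 was higher by 0.57 ± 0.069 in WT and by 0.11 ± 0.086 in KO, and neither change was in a table. The KO value had a counting interval of −0.05 to 0.28 and turned negative when the median change of all genes was subtracted.

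**Figure D1:**
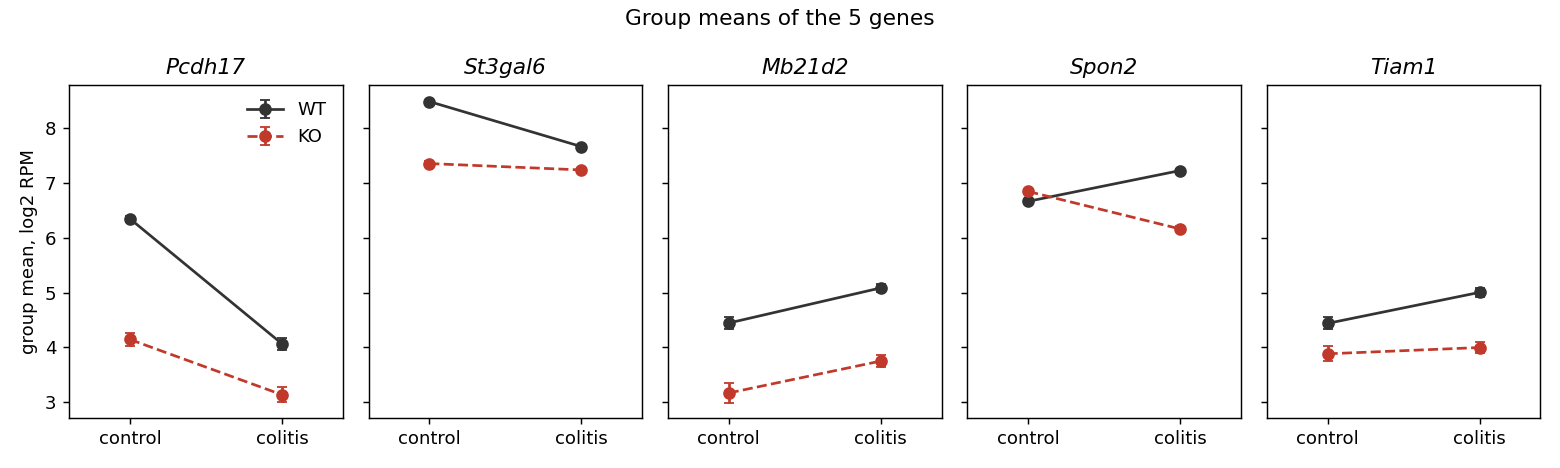
Group means of the 5 genes in log2 RPM (y axis) in control and colitis (x axis), WT in black with solid lines and KO in red with dashed lines. Bars are 95% counting intervals and do not show the spread between mice. The WT line of Pcdh17 drops from 6.34 to 4.07, the lines of Mb21d2 run side by side, and those of Spon2 cross.

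The 5 genes fell into different patterns, which their choice from either table of KO against WT can itself produce. In control, 3 of them (Pcdh17, St3gal6 and Mb21d2) were lower in KO by at least 1 on the log2 scale, against 0.735% of the genes in the tables, and the same 3 were in that table as lower (0.367%). In colitis Mb21d2, Spon2 and Tiam1 were lower by at least 1, against 2.9% of genes, and were in that table (0.387%). As these contrasts chose the genes, nothing is read from either count. Among the other lower genes, Smarcad1 left out, the difference ran from −0.85 to −0.47 over 15 genes in the control table, all smaller in size than those of Pcdh17, Mb21d2 and St3gal6. Over 16 genes in the colitis table it ran from −2.03 to −0.22. Chil1, a chitinase-like protein, was at −2.03, Adamtsl2, a matrix glycoprotein, at −1.10 and Plcd3, a phospholipase C, at −1.05. Chil1 was therefore further below WT in colitis than any of the 5 genes, while its difference in control was −0.16.

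**Figure D2:**
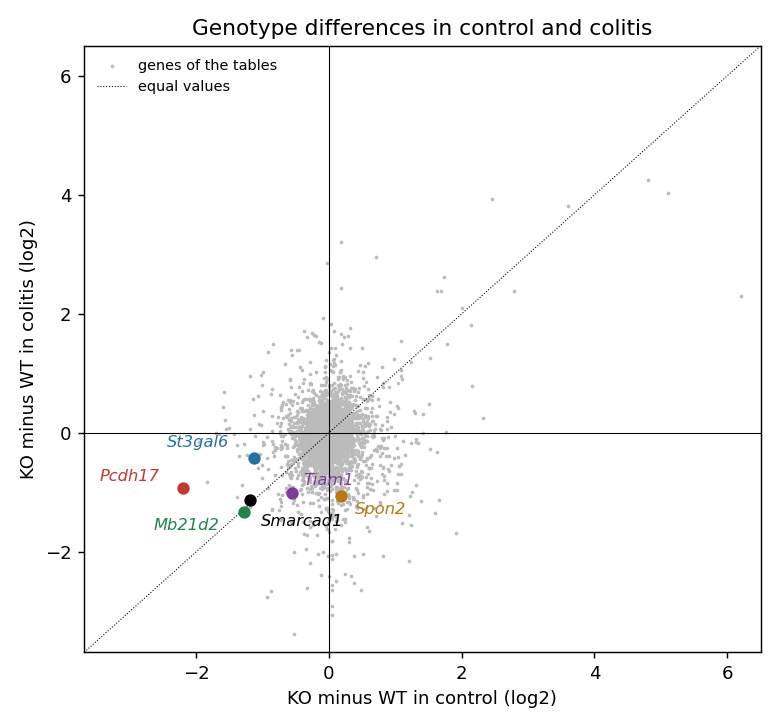
KO minus WT in control (x axis) against KO minus WT in colitis (y axis), both in log2, with a grey point for each of the 5171 genes and a dotted line of equal values. Mb21d2 lies near the line beside Smarcad1, Pcdh17 (−2.20 and −0.93) and St3gal6 lie above it, and Tiam1 and Spon2 (0.18 and −1.07) lie below it.

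With colitis in WT, Pcdh17 and St3gal6 were in the table as lower, where 26.4% of all listed genes were, and Mb21d2 and Spon2 as higher, where 36.6% were. In KO, Pcdh17 was in the table as lower (33.6% of listed genes) and Mb21d2 as higher (44.8%). These shares are high because the 2 tables of colitis hold 3261 and 4056 genes, and the counts of 5 genes do not stand out from them. By size, Pcdh17 alone of the 5 was lower by at least 1 with colitis, as were 13% of listed genes in WT and 12.6% in KO, and its change in WT had 86 genes below it. The change of KO was above that of WT by at least 0.5 for Pcdh17 and St3gal6, as for 7.08% of genes, and below it by at least 0.5 for Spon2, as for 11.6%. Each such value is KO minus WT in colitis less KO minus WT in control. These contrasts chose the genes, so nothing is read from these shares. The median change over all genes was 0.13 in WT and 0.19 in KO. Relative to it, St3gal6 changed by −0.95 in WT and −0.31 in KO, and Mb21d2 by 0.51 and 0.39.

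**Figure D3:**
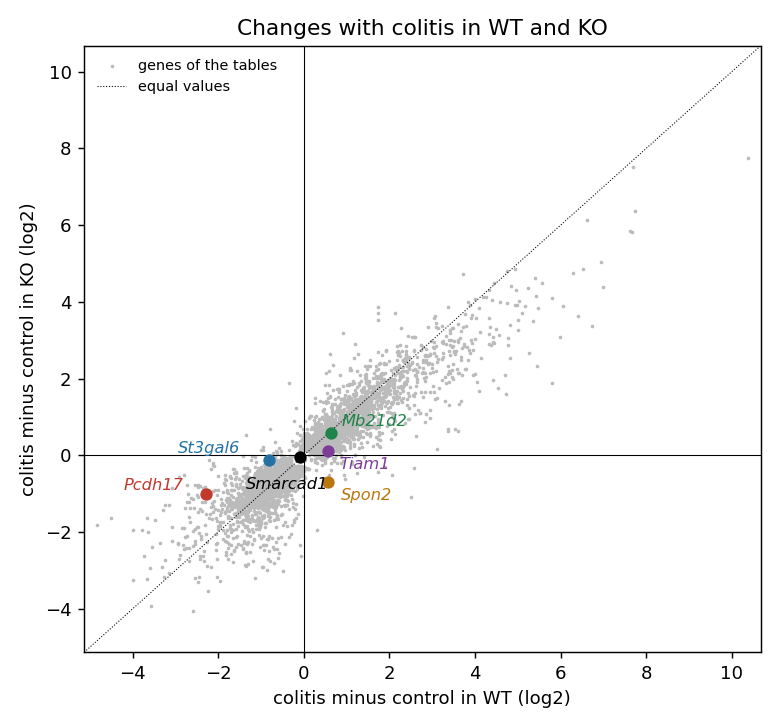
Colitis minus control in WT (x axis) against the same in KO (y axis), both in log2, for the 5171 genes in grey and the 5 genes in colour, with a dotted line of equal values. Most points lie in the lower left and upper right, Mb21d2 (0.64 and 0.58) lies near the line, and Spon2 (0.56 and −0.68) lies at the lower right.

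Per kilobase of exon (RPKM, from exon lengths of the GENCODE M21 annotation within the span in the tables), St3gal6 and Spon2 were the most abundant of the 5 in every group. In WT control the levels were 57.8 RPKM for St3gal6, 34.4 for Spon2, 7.35 for Pcdh17, 6.68 for Mb21d2 and 2.19 for Tiam1. In KO colitis they were 24.4, 24.2, 0.797, 4.13 and 1.61 in the same order. Pcdh17 thus went from the third place to the last. The step between St3gal6 and Spon2 in KO colitis was 0.01 ± 0.030 on the log2 scale and that between Pcdh17 and Tiam1 in KO control 0.10 ± 0.094, both within counting error. Among the 4 means of a single gene, KO control and WT colitis of Pcdh17 and the KO means of Tiam1 differed by no more than counting error allows.

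The tables list 8 of 38 protocadherins and cadherins, and Pcdh17 was the only 1 of them in a table of KO against WT. Pcdh17 was chosen from that table, and 0.716% of all listed genes were lower in a table of KO against WT. Nothing is therefore read from its place in the family. The median KO minus WT difference of the 8 was 0.0016 in control and −0.22 in colitis, against 0.0046 and −0.01 over all genes. The protocadherins Pcdh7 and Pcdh12 had control differences of −0.05 and 0.18. With colitis, 4 of the 8 were in the WT table as lower (26.4% of all listed genes) and 1 as higher (36.6%), and 7 were in the KO table as lower (33.6%). Such shares are over genes that were listed because they passed in at least 1 table, mostly those of colitis.

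Of 20 sialyltransferases 8 were listed, and 2 of them, St3gal6 and St3gal1, were in the control table of KO against WT as lower. St3gal1, which sialylates core structures of O-linked glycans, was at 6.73 for WT and 6.16 for KO in control, a difference of −0.57, and at −0.53 in colitis without being in that table. St8sia3, which links sialic acids to each other, had −0.57 in control without being in the table. St8sia5, which acts on gangliosides, was 1.39 above WT in colitis and St6galnac4 0.51 above it, and neither was in a table of KO against WT. The median of the 8 was −0.37 in control and 0.19 in colitis. With colitis in WT, 7 of the 8 were in the table as lower (26.4% of all listed genes), and in KO 3 as lower (33.6%) and 1 as higher (44.8%). Their levels summed to 1405 RPM for WT and 1101 for KO in control, and to 924 and 980 in colitis. The medians and sums include St3gal6, which was chosen for its difference and had 357 RPM for WT and 163 for KO in control. Nothing is therefore read from them about the family. Of the listed genes for selectins and the synthesis of their ligands, 7 of 13, none was in a table of KO against WT. There 0.367% (control) and 0.387% (colitis) of all listed genes were lower, so this absence does not stand out. Fut4, a fucosyltransferase that acts after sialylation, was −0.56 in control and 0.10 in colitis. Its 4 means, 8.15, 7.59, 7.61 and 7.71, shared with St3gal6 a WT control mean above the others. P-selectin (Selp) had KO minus WT values of −0.54 and −0.91 in control and colitis, E-selectin (Sele) −1.13 in colitis, and Fut7 0.72 in colitis. Fut7 was at −1.37 in WT colitis, close to 3 reads per library, so its difference rests on few reads.

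Of 12 genes of the Mab-21 fold 2 were listed. Mab21l3, the other one, was 0.56 above WT in control and 0.85 above it in colitis, opposite in sign to Mb21d2. It was in no table of KO against WT. In control it was at −1.62 in WT and −1.05 in KO, close to 3 reads per library, so that difference rests on few reads. The cGAS and STING pathway had 3 of 8 genes listed. KO minus WT differences were 0.21 and −0.13 for Tmem173 (STING itself), −0.36 and −0.04 for Trex1, a DNA exonuclease, and 0.01 and 0.24 for Enpp1, which breaks down cGAMP. Of these, 0 were in a table of KO against WT, where 0.716% of all listed genes were lower, so this absence does not stand out.

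Among 16 spondins and related proteins with thrombospondin repeats 6 were listed, with a median KO minus WT difference of 0.02 in control and −0.53 in colitis. Spon2 was the only 1 in the colitis table of KO against WT. As Spon2 was chosen from that table, where 0.387% of all listed genes were lower, nothing is read from this. Rspo1, a secreted Wnt agonist, had values of 0.44 and −1.01, and Spon1 −0.06 and −0.55. With colitis in WT 4 of the 6 were in the table as higher (36.6% of all listed genes), Spon2 among them, and 2 as lower (26.4%). Of 12 genes of integrin receptors of mindin and of lipopolysaccharide sensing, 6 were listed, all 6 in the WT colitis table as higher (36.6% of all listed genes) and 5 in the KO colitis table (44.8%). None was in a table of KO against WT, where 0.367% and 0.387% of listed genes were lower, so that 0 of 6 does not stand out. The median of the 6 was 0.03 for KO minus WT in control and −0.20 in colitis. Cd14, a receptor for lipopolysaccharide, had 0.35 and −0.08.

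Of 27 Rac GTPases and exchange factors 11 were listed, and Tiam1 was the only 1 in a table of KO against WT. As Tiam1 was chosen from that table, where 0.387% of all listed genes were lower, nothing is read from this. The median difference of the 11 was 0.10 in control and 0.15 in colitis, with the opposite sign to Tiam1. Rac1, the main target of Tiam1, was at 9.38 in WT control and 9.34 in KO control and differed by 0.02 in colitis. With colitis 8 of the 11 were in the WT table as higher (36.6% of all listed genes) and 9 in the KO table (44.8%). The exchange factors Vav1 and Prex1, which are typical of leukocytes, were in these groups, with changes in WT of 0.68 and 1.44. The 6 listed of 15 Rac effectors and inhibitors had median differences of 0.04 and 0.07 between the genotypes.

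**Figure D4:**
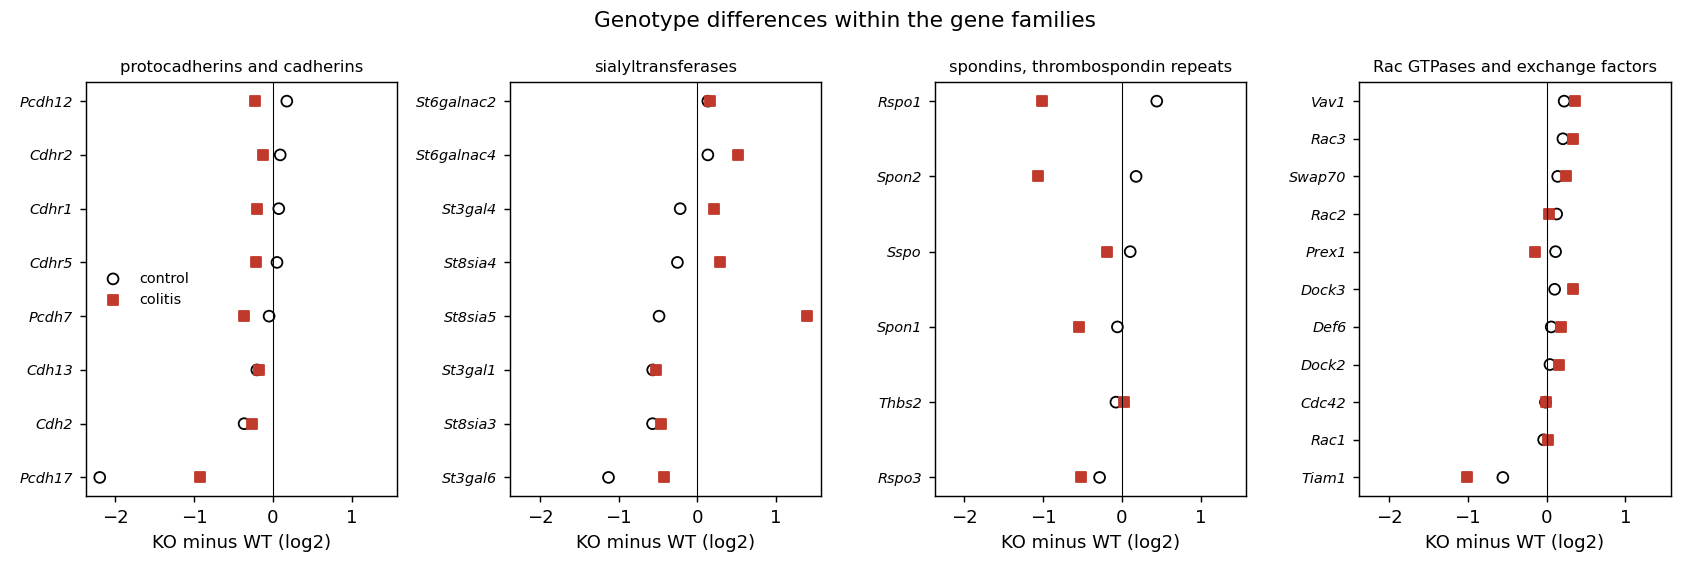
KO minus WT (x axis, log2) for the listed genes of the 4 families that Pcdh17, St3gal6, Spon2 and Tiam1 belong to, with open circles for control and red squares for colitis and 1 gene on each line. Pcdh17 and Tiam1, which were chosen for these differences, lie furthest to the left in their families. St8sia3 and St3gal1 lie left of 0 in both conditions, as does St3gal6, and Rspo1 (0.44 and −1.01) is placed like Spon2.

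Genes with the nearest pattern were found by the Euclidean distance between the 4 group means after each gene's own mean was subtracted, over all 5171 genes. Nearest to Pcdh17 were Cyp2j13, a cytochrome P450, at 0.774, the transcription factor Zbtb16 at 0.841 and Bbox1, an enzyme of carnitine synthesis, at 0.926, and only these 3 genes lay within 1. Zbtb16 went from 4.72 in WT control to 3.16 in KO control and 2.29 in WT colitis, but in KO colitis was 0.07 above WT. Cyp2j13 and Bbox1 were at or under 3 reads per library outside WT control, so their patterns rest on few reads. St3gal6 was nearest to Scnn1g (0.205), the gamma subunit of the epithelial sodium channel, which had 3.51 (WT) and 2.23 (KO) in control and 2.56 (WT) and 2.37 (KO) in colitis. Rims1 (0.395), a synaptic scaffold protein, and Miga1 (0.427), a mitochondrial protein, followed, and both were in the control table of KO against WT as lower.

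Nearest to Mb21d2 were Tpm3-rs7 (0.419), Acta1 (0.497), the skeletal muscle actin, and Cst6 (0.598), a cystatin. Tpm3-rs7 is a copy related to Tpm3, and its count is uncertain where reads could come from either. In these 3 genes KO minus WT ran from −0.76 to −0.47 in control and from −1.21 to −1.03 in colitis, against −1.27 and −1.33 for Mb21d2. Spon2 was nearest to Angptl4 (0.228), a secreted inhibitor of lipoprotein lipase, Col6a3 (0.310), a collagen, and Rspo1 (0.328), and of these Col6a3 was in the colitis table of KO against WT as lower, by 0.67. Tiam1 was nearest to Adamts1 (0.198), a secreted protease, Cwh43 (0.257) and AI481877 (0.301), and AI481877 was in the colitis table as lower, by 0.97. A distance over 4 means leaves many close genes, 1427 within 1 of St3gal6, 2531 of Spon2 and 1908 of Tiam1 against 69 of Mb21d2. The choice of genes also depended on centring and scaling.

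**Figure D5:**
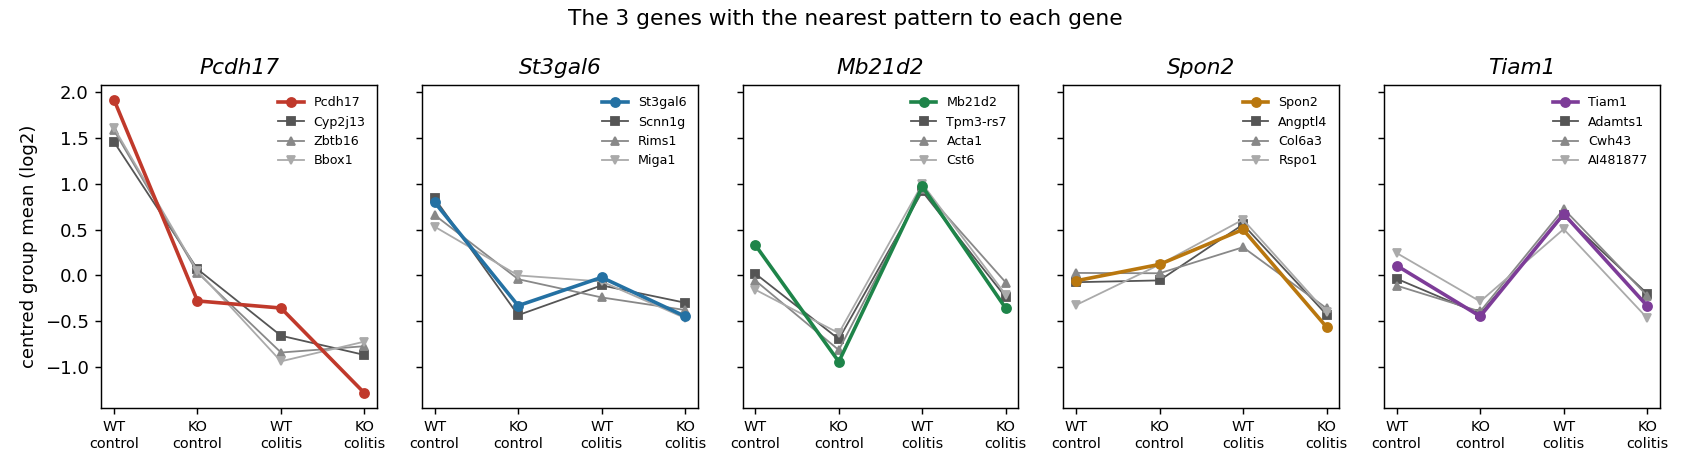
Group means after subtraction of the gene's own mean (y axis, log2) in the 4 groups (x axis) for each of the 5 genes in colour and the 3 nearest genes in grey. The lines of Scnn1g and St3gal6 and those of Angptl4 and Spon2 nearly coincide, whereas Pcdh17 runs below its 3 neighbours in KO colitis.

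The listed genes within 1 Mb numbered 0 for Pcdh17, 2 for St3gal6, 1 for Mb21d2, 6 for Spon2 and 1 for Tiam1. None of them was lower in KO in a table of KO against WT. Over all listed genes 0.716% were, so this absence does not stand out. For Pcdh17 no gene of the tables lay within 1 Mb, and the nearest were Rgcc and Dach1. Beside St3gal6, Col8a1, a collagen, lies 713 kb away and differed by −0.04 in control and 0.86 in colitis, and Pros1 lies 4330 kb away on the other side. Next to Mb21d2 were P3h2 (−0.21 in control and −0.20 in colitis) and, at 466 kb, Atp13a4, which was 1.03 above WT in control and 0.85 above it in colitis but at under 1 read in WT colitis. Beside Spon2 were Gm43313 and, at 160 kb, the repair factor Uvssa, with 0.30 and −0.05. Beside Tiam1 were 2310034C09Rik and, at 406 kb from the end of its span in the tables, the kinase Hunk, with 0.24 and 0.36.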

How the data were processed

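RNA from whole colon was sequenced on a BGISEQ platform as reads given as single end in the labels and otherwise in the methods of the study. The authors mapped reads to GRCm38 with HISAT2 2.1.0, removed reads over annotated ribosomal RNA after contamination in some samples, counted reads over exons in SeqMonk and ran DESeq2 on pairs of groups. The 4 tables were deposited with the genes under an adjusted p-value of 0.05 in 1 comparison each, 7419 rows in all, and with the authors' log2 RPM mean of each of the 4 groups. Rows of a gene in different tables held equal means. The authors' adjusted p-values were used only to check that each row was under 0.05 and are not printed.

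Differences of group means were computed with pandas 2.3.3 and numpy 2.4.6. The value of 0.9 read stands for a count of 0 in the means, so the lowest mean of a group gave its geometric mean library size, which was tested on simulated data. Low means fell on the steps of whole reads within 0.001 per library. Counting SEs and 95% intervals cover counting error only, and the floor was 3 reads per library, −1.75 to −1.42 log2 RPM. Besides the 5 genes, the text names Smarcad1, the 3 genes with the nearest pattern to each, the nearest listed genes on each side, the genes lower by at least 1 in a KO against WT table, and genes of the pathway lists that were in such a table or differed by at least 0.5 above the floor, at most the 3 largest per list and condition. Other genes of the lists given as examples (Pcdh7, Pcdh12, Rac1, Vav1, Prex1, Cd14, Tmem173, Trex1, Enpp1, Nckap1l, Prkcz, Fabp6, Clca1, Ret and the neutrophil markers) were chosen after their values were seen. The genes, the 12 pathway lists (62 of 189 genes in the tables) and the 15 marker lists (44 of 89) were chosen with earlier results of these data known. Promoters came from RefSeq, of which 4 of the 5 genes matched. Alternatives shifted the scale by a median, moved the fold threshold or filter and changed the distance.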

Additional observations from a re-analysis of the deposited data

How the results depend on the processing

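No paired analysis was possible because the deposited columns used here are group means and carry no replicate numbers, and libraries were not left out in turn for the same reason. Counts by library in the study's supplement were not used. Of 60 values of the 5 genes under another scale, 36 moved by no more than their counting interval, among them all values of KO minus WT, 21 moved by more and 3 turned sign. Each shift is the median that was subtracted, which over all listed genes was 0.13 with colitis in WT and 0.19 in KO. These genes were listed for changing, and why their median change is not 0 was not tested. After subtraction of the median of all genes, of the most abundant 25% and of genes in neither KO against WT table, in this order, the changes with colitis in WT were −2.40, −2.42 and −2.41 for Pcdh17, −0.95, −0.96 and −0.95 for St3gal6 and 0.43, 0.42 and 0.43 for Spon2. With the abundant 25%, Mb21d2 gave 0.50 and Tiam1 0.43. In KO the same order gave −1.20, −1.22 and −1.20 for Pcdh17, −0.31, −0.33 and −0.31 for St3gal6, −0.87, −0.89 and −0.88 for Spon2, and −0.077, −0.097 and −0.084 for Tiam1, whose direction turned. Mb21d2 gave 0.37 with the abundant 25%.

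With a threshold of 0.5 in place of 1, the genes counted as lower or higher were 179 and 209 in place of 38 and 56 for KO minus WT in control, 533 and 281 in place of 150 and 77 in colitis, 1544 and 1580 in place of 672 and 953 for colitis in WT, and 1584 and 1444 in place of 649 and 827 in KO. Among genes above 3 reads in all 4 groups, 21 were lower and 30 higher in control, and 77 were lower in colitis. Each of the 5 genes was above this floor in every group. Of the 3 nearest genes, division by the SD shared 0 for Pcdh17, 1 each for St3gal6, Mb21d2 and Tiam1, and 2 for Spon2. Without centring 0 were shared for Pcdh17, St3gal6, Mb21d2 and Spon2, and 1 for Tiam1. The cause was not tested. Only group means were used. At the depth here the counting SE of a mean was 0.014 to 0.089 for the 5 genes, and the spread between mice was not analysed here.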

Other observations

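Other lists touched by the 5 genes held few listed genes. For the WAVE complex, which links some protocadherins and Rac to actin, 1 of 11 genes was listed, Nckap1l, with KO minus WT differences of −0.15 in control and 0.10 in colitis. For the Par polarity complex, a partner of Tiam1, 1 of 7 was listed, Prkcz, with 0.10 and 0.08. For sialic acid supply and removal 3 of 10 were listed, with medians of 0.01 and 0.22, and the sialidase Neu3 was 0.53 above WT in colitis. None of these listed genes was in a table of KO against WT, where 0.716% of all listed genes were lower, so this absence does not stand out.

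Markers of other cell types were followed over the same means. The summed level of 4 of 4 tuft cell markers was 92.9 RPM in WT control, 74.6 in KO control, 43.6 in WT colitis and 41.9 in KO colitis. The 1 listed of 6 goblet cell markers, Clca1, was at 14.04, 13.22, 12.89 and 12.65 log2 RPM in the same order. As for St3gal6, WT control was the highest and KO colitis the lowest of these 4 values. The same held for the sums of tuft, smooth muscle and enteric neuron and glia markers. KO control of Clca1 was above WT colitis, whereas St3gal6 had the reverse. The 3 of 5 crypt base markers summed to 180, 175, 133 and 155 RPM, the 2 of 5 enteroendocrine markers to 259, 204, 335 and 292 RPM, the 2 of 6 smooth muscle markers to 3619, 3358, 2345 and 2316 RPM, and the 4 of 7 markers of enteric neurons and glia to 124, 108, 76.9 and 57.7 RPM, in this order of groups. Among the latter, Ret was lower in KO by 0.66 in colitis and was in that table. Of neutrophil markers 6 of 7 were listed, with a summed level of 94.4 and 101 RPM in WT and KO control and of 382 and 280 RPM in WT and KO colitis. Ly6g had the highest level of them in each group, at 6.52 and 6.62 log2 RPM in WT and KO control and 7.70 and 7.88 in WT and KO colitis. It made up most of each sum and differed by 0.19 between KO and WT in colitis. The median difference of the 6 in colitis was −1.29, with −2.66 for S100a8, −2.77 for S100a9, −1.67 for Cxcr2, −0.90 for Csf3r and −0.02 for Ltf. Of the 6, 0 were in a table of KO against WT, where 0.367% (control) and 0.387% (colitis) of all listed genes were lower. This absence does not stand out. In control 3 of the 6 were at or under 3 reads per library in WT and 4 in KO. The 5 of 6 macrophage markers summed to 282, 290, 568 and 529 RPM and the 5 of 5 T cell markers to 18.3, 17.3, 55.3 and 57.4 RPM. Markers of epithelium (0 of 8), endothelium (0 of 5) and B and plasma cells (0 of 5) were not in the tables. The part of cell composition in the differences of the 5 genes was not tested.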
